A study of Mus musculus with 6 samples.

Results

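Cholesterol synthesis was followed in the distal midgut of *Id2*-/- embryos through 8 genes of the pathway, *Hmgcs1*, *Sqle*, *Idi1*, *Fdft1*, *Fdps*, *Lss*, *Cyp51* and *Dhcr7*. The genes were taken by symbol, with every probe that the platform annotation gives to that symbol alone. Of the 8 genes, 6 have such a probe, and these genes are read by 7 of the 33012 probes on the array, because *Idi1* has 2. *Fdps* and *Lss* were not analysed here. All 7 probes were above background, meaning a signal-to-noise score of at least 3, on all 6 arrays. None of the 6 genes differed between the genotypes by more than the spread between samples. Within the arrays of the same number, 5 of the 6 genes were higher in *Id2*-/- than in *Id2*+/+ in the pair numbered 1. These 5 were lower in the pairs numbered 2 and 3, a sequence that 40.1% of all tested probes shared. *Dhcr7* was higher in all 3 pairs, as were 11.8% of all tested probes.

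RNA came from the distal segment of the midgut of E13.5 mouse embryos, and each sample was hybridized to its own 1-color array. The 3 control samples were from embryos with both wild-type alleles of *Id2* (*Id2*+/+), which encodes an inhibitor of basic helix-loop-helix transcription factors. The 3 other samples were from littermates lacking *Id2* in all cells (*Id2*-/-). Whether the RNA of a sample came from 1 embryo or several is not stated, so p-values speak only for the spread among these 6 samples, which may be technical in part. The methods give a 129/Sv or a mixed 129/Sv and NMRI background for the *Id2* mice without saying which was used for the arrays. *Id2* itself was not analysed here, and the genotype of each sample is taken from its label. The segment holds epithelium, mesenchyme, smooth muscle, neural crest, blood and vessels together, and in such bulk RNA fewer cells of a type and less RNA per cell cannot be told apart. Markers of gut tissue were present. Of the measured markers, *Epcam* and *Cdh1* (epithelium) and *Cdx2* and *Vil1* (intestinal epithelium) were above background on every array, as were 10 mesenchyme markers.

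Cells make cholesterol from acetyl-CoA in a long chain of reactions. *Hmgcs1* condenses acetyl-CoA with acetoacetyl-CoA, the mevalonate that follows is turned into isoprenoid units that *Idi1* interconverts, *Fdps* joins these into farnesyl diphosphate, and *Fdft1* commits that product to squalene. *Sqle* and *Lss* then form the first sterol, lanosterol, from which *Cyp51* removes a methyl group, and *Dhcr7* catalyzes the last reduction to cholesterol. Transcription of these enzymes is driven by SREBP2, a membrane-bound factor that SCAP carries to the Golgi for cleavage when sterols run low and that INSIG proteins hold back when sterols are plentiful. Growing tissue takes cholesterol from this route and from lipoproteins, and in the embryo cholesterol is also attached to hedgehog ligands, which pass from the gut epithelium to the mesenchyme.

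SREBP acts through short sites next to the start of its target genes, usually beside boxes for NF-Y and Sp1, so the upstream sequences of members are shown for what the genes share apart from the array values. RefSeq promoter windows (GRCm38.p6) were at hand for 5 of the 8 genes, in 7 windows of 250 bases before a transcription start. Those of *Hmgcs1*, *Idi1* and *Cyp51* are printed because these genes followed the common pattern over the pairs, and the *Dhcr7* window with the most matches because *Dhcr7* did not. Each runs 5′ to 3′ on the gene's strand, and capitals mark the letters of a sterol regulatory element or an NF-Y box on either strand.
Hmgcs1, chr13:119690101-119690350, plus strand: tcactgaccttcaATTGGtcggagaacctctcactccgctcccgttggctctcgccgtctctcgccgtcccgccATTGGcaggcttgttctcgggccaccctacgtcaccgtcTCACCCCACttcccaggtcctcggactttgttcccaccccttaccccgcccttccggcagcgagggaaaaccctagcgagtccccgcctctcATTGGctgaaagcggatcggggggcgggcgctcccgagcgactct
Idi1, chr13:8885356-8885605, plus strand: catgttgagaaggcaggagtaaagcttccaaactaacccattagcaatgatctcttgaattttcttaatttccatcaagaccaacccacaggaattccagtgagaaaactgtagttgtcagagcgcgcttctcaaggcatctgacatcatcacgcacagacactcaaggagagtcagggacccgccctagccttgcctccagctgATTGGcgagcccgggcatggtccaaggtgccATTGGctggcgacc
Cyp51, chr5:4104698-4104947, minus strand: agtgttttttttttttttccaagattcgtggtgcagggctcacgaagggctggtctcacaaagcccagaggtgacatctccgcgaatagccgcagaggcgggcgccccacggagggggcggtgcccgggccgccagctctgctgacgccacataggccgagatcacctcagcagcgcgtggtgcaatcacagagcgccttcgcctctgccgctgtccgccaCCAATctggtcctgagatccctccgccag
Dhcr7, chr7:143829964-143830213, plus strand: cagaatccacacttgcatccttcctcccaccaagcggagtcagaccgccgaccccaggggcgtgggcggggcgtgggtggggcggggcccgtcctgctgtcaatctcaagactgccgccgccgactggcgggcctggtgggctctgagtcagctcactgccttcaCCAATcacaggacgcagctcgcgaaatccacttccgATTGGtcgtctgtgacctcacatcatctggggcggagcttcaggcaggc

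The letters searched, on both strands, were TCACNCCAC for the sterol regulatory element, CCAAT for the NF-Y box (ATTGG on the other strand), GGGCGG for the Sp1 box and CACCTG for the E box, the kind of site that basic helix-loop-helix factors bind. The motifs differ in length and base content, and their matches in the windows of these genes did not overlap each other. The *Hmgcs1* window held 1 sterol regulatory element, lying 137 to 129 bases before the start, with 3 NF-Y boxes and 2 Sp1 boxes. The *Idi1* window held 2 NF-Y boxes, 45 and 14 bases before the start, and 1 Sp1 box, and the *Cyp51* window held 1 of each. Of the 3 *Dhcr7* windows, the one shown held 2 NF-Y and 3 Sp1 boxes, another 1 Sp1 box and the remaining one no match. The *Lss* window held 1 NF-Y box, 2 Sp1 boxes and the only E box among the windows of these genes. By window, the element was found in 1 of 7, the NF-Y box in 5, the Sp1 box in 6 and the E box in 1, against 1.05%, 33.8%, 32.7% and 17.2% of the 32851 mouse windows of the same length. A match is a string of letters and not a measured site, and no binding was measured here.

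The signal of the first enzymes of the chain did not separate the genotypes. Values are given as log2 of the signal divided by the median signal of the array, and they are compared between arrays for the same probe only. *Hmgcs1* read 7.14, 8.94 and 8.86 on the *Id2*+/+ arrays numbered 1, 2 and 3 and 7.96, 8.43 and 8.48 on the *Id2*-/- arrays of the same numbers. The control array numbered 1 was the lowest of all 6 and the other control arrays the highest, so the knockout values lay inside the range of the controls. The means were 8.31 ± 1.02 and 8.29 ± 0.29 (SD, n = 3 each), a difference of -0.02 (SE 0.50, limma adjusted p = 1.0), and its 95% confidence interval ran from -1.20 to 1.15. By number the difference, *Id2*-/- minus *Id2*+/+, was 0.82, -0.51 and -0.38, which is 1.76-, 0.704- and 0.766-fold.

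*Idi1*, the isomerase of the isoprenoid units, is read by 2 probes. The brighter probe gave 6.48, 8.0 and 8.01 in *Id2*+/+ and 7.24, 7.43 and 7.39 in *Id2*-/-, again with the control array numbered 1 lowest and the other control arrays highest. Its difference was -0.14 (SE 0.43, limma adjusted p = 1.0, 95% interval -1.16 to 0.88). The dimmer probe gave 4.95, 4.90 and 5.09 in *Id2*+/+ and 5.74, 4.49 and 4.47 in *Id2*-/-. Here the control arrays lay close together and the knockout array numbered 1 stood above the rest. The probes therefore disagreed on how the arrays numbered 1 stood against the others of their genotype. They gave nearly the same differences by number, 0.76, -0.57 and -0.61 for the brighter and 0.79, -0.40 and -0.62 for the dimmer.

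At the squalene steps the picture was that of *Hmgcs1*. *Fdft1*, squalene synthase, gave 5.80, 6.79 and 6.98 in *Id2*+/+ and 6.45, 6.48 and 6.37 in *Id2*-/-, with the knockout arrays close to each other. *Sqle*, squalene epoxidase and a rate-limiting step of the sterol branch, gave 6.43, 8.20 and 8.10 in *Id2*+/+ and 7.19, 7.55 and 7.65 in *Id2*-/-. For both genes every knockout array lay above the control array numbered 1 and below the other control arrays. The differences of the means were -0.09 for *Fdft1* (SE 0.34, 95% interval -0.90 to 0.72) and -0.12 for *Sqle* (SE 0.49, 95% interval -1.26 to 1.03), with a limma adjusted p of 1.0 for each. By number, *Fdft1* differed by 0.64, -0.31 and -0.61 and *Sqle* by 0.76, -0.65 and -0.46. The latter is 1.69-fold, 0.638-fold and 0.729-fold.

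Among the 6 genes, *Cyp51* and *Dhcr7* differed from this in which arrays were high. *Cyp51*, lanosterol demethylase, gave 4.68, 4.19 and 4.46 in *Id2*+/+ and 5.19, 4.09 and 4.02 in *Id2*-/-, with the array numbered 1 highest in each genotype. The means were 4.44 ± 0.25 and 4.43 ± 0.66 (SD, n = 3 each), the difference was -0.01 (SE 0.37, limma adjusted p = 1.0, 95% interval -0.87 to 0.86), and by number it was 0.52, -0.10 and -0.44. *Dhcr7*, 7-dehydrocholesterol reductase, gave 2.17, 0.31 and 0.82 in *Id2*+/+ and 2.74, 0.83 and 2.16 in *Id2*-/-. It was the only one of the 6 genes with a higher value in the knockout at every number, by 0.58, 0.52 and 1.34. The groups still overlapped, since the control array numbered 1 lay above 2 of the knockout arrays. Its difference was 0.81, or 1.75-fold (SE 0.63, limma unadjusted p = 0.234, adjusted p = 1.0, 95% interval -0.66 to 2.28). Its signal was also nearest to background, with scores of 3.41 and 3.38 on the arrays numbered 2, whereas the scores of the other 6 probes were between 28.7 and 101.

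**Figure D1:**
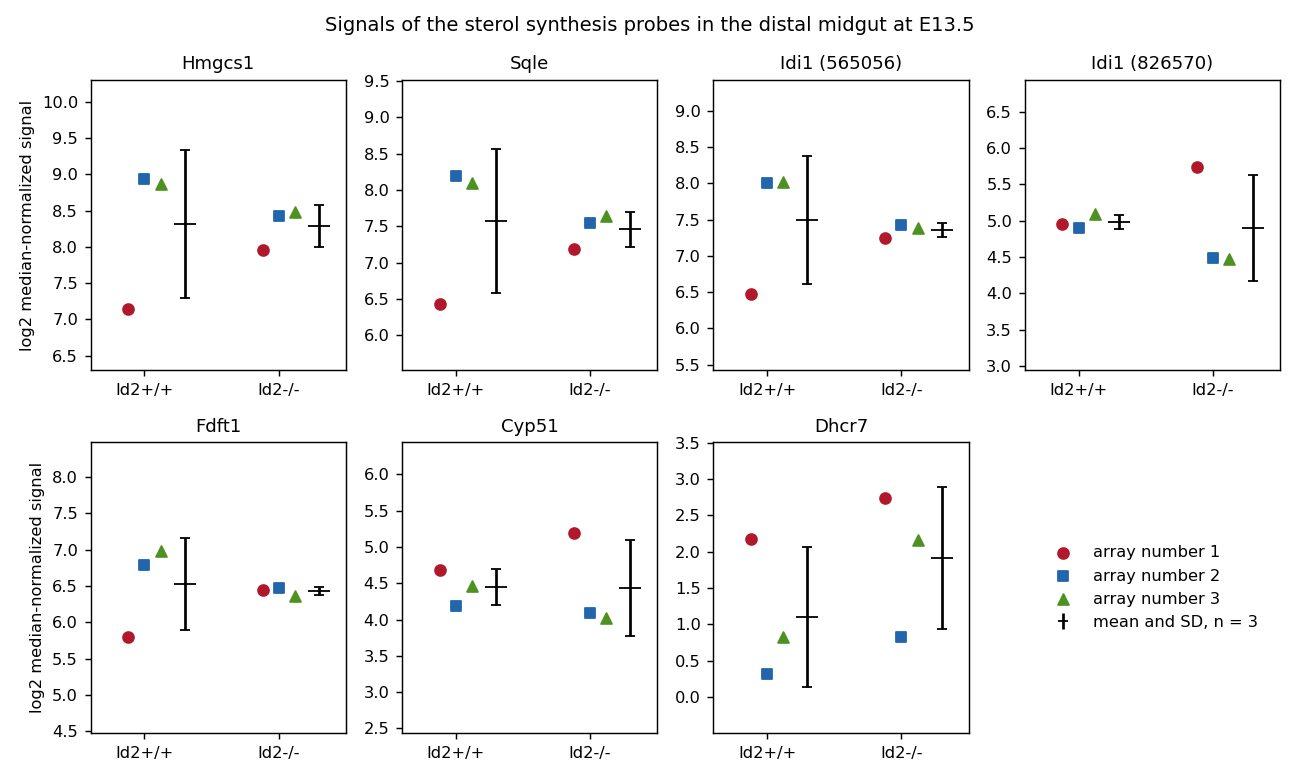
Log2 median-normalized signal (vertical axis) of each of the 7 probes on the 3 *Id2*+/+ and 3 *Id2*-/- arrays, with the array number as color and shape and the mean and SD of each genotype in black. Every panel spans the same number of log2 units but starts at its own level. The control array numbered 1 is the lowest point for *Hmgcs1*, *Sqle*, *Fdft1* and the brighter *Idi1* probe, and the genotypes overlap in every panel.

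Across the array, limma called 0 of 12741 tested probes (0.0%) at an adjusted p under 0.05, with 234 at an unadjusted p under 0.05, and 0 of the 6 genes were among either. Arrays of the same number were taken as pairs, which the values bear out for number 1 against the rest but not for number 2 against 3. With the number as a block limma called 278 probes (2.18%), 135 higher and 143 lower, and again 0 of the 6 genes. *Dhcr7* came nearest with the block (SE 0.27, unadjusted p = 0.00315, adjusted p = 0.11), and with quantile normalization added its limma adjusted p was 0.649. A gap of at least 2-fold between the genotype means was found for 1.55% of probes and for 0 of the 6 genes. The genotypes did not overlap for 4.02% of probes and for 0 of the 6 genes. The intervals given above are wide, and they do not show that the genotypes were alike.

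What the genes had in common lay in the comparison by number. In the pair numbered 1 all 6 genes were higher in *Id2*-/-, by 0.52 to 0.82 with a median of 0.70. In the pair numbered 2 the median was -0.41 and in the pair numbered 3 it was -0.45, and in each of these pairs 5 of the 6 genes were lower and *Dhcr7* was higher. The sequence of a higher value in the pair numbered 1 and lower values in the other pairs was also that of 5111 tested probes, 40.1% of all, so the sign pattern of these 5 genes was a common one on these arrays. A higher value in all 3 pairs, as in *Dhcr7*, was found for 11.8% of probes, and a lower value in all 3 pairs for 5.64% of probes and for 0 of the 6 genes.

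The size of the pair differences was read against the rest of the array. As a group, the tested probes had medians of 0.35, -0.04 and -0.19 by number, with quartiles of 0.15 to 0.52, -0.22 to 0.14 and -0.36 to 0.01. *Hmgcs1*, *Sqle*, *Idi1* and *Fdft1* lay outside these quartiles in all 3 pairs, *Hmgcs1* only just so in the pair numbered 3 (-0.38). The share of all tested probes that did so was not computed, so this does not show that it was unusual. Against probes of like signal, within 0.5 log2 units of the gene's own mean, all 6 genes were above the median in the pair numbered 1 and 5 were below it in each of the other pairs. The median distance from the probes of like signal was 0.34, -0.34 and -0.23. After quantile normalization, which took the medians of all probes to 0.02, 0.01 and -0.00, *Hmgcs1* differed by 0.45, -0.41 and -0.16 and *Sqle* by 0.37, -0.56 and -0.24. *Idi1* then differed by 0.37, -0.48 and -0.40, *Fdft1* by 0.28, -0.21 and -0.38, *Cyp51* by 0.16, -0.06 and -0.23, and *Dhcr7* by 0.30, 0.57 and 1.47. All 6 genes thus kept their signs by number under this scaling.

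Arrays with the number 1 differed from the rest over the whole array, and the cholesterol synthesis genes differed there in both directions. Over the tested probes, the arrays numbered 1 correlated with each other at 0.984 and with the other arrays at 0.909 to 0.931, while the arrays numbered 2 and 3 correlated among themselves at 0.979 to 0.988. *Hmgcs1* was 1.76 lower on the control array numbered 1 than the mean of the other control arrays, where probes of like signal were 0.51 lower, and 0.50 lower on the knockout array numbered 1, where such probes were 0.04 lower. *Sqle* was lower by 1.72 and 0.41 and the brighter *Idi1* probe by 1.52 and 0.17, and *Fdft1* was 1.08 lower in the controls and 0.02 higher in the knockout. *Cyp51* and *Dhcr7* went the other way, with *Cyp51* higher by 0.35 and 1.14 and *Dhcr7* by 1.60 and 1.25. The dimmer *Idi1* probe differed by -0.04 in the controls and 1.26 in the knockout. A lower value on the array numbered 1 than on both others of the genotype, in both genotypes, was found for *Hmgcs1*, *Sqle* and the brighter *Idi1* probe. The same was found for 33.7% of all tested probes. What the arrays of a number had in common is not stated, and its part in these values was not tested.

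**Figure D2:**
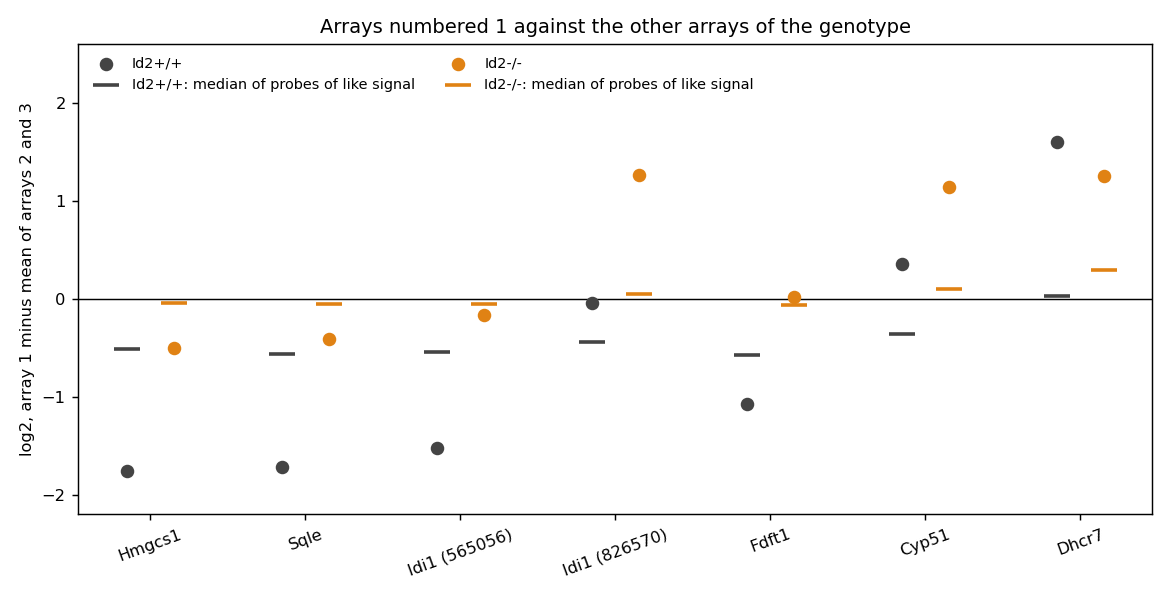
Log2 signal of the array numbered 1 minus the mean of the arrays numbered 2 and 3 (vertical axis) for each of the 7 probes in *Id2*+/+ (dark) and *Id2*-/- (orange), with bars for the median of probes of like signal. In the controls *Hmgcs1*, *Sqle*, *Fdft1* and the brighter *Idi1* probe lie below their bars, and *Cyp51* and *Dhcr7* lie above theirs in both genotypes.

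Without the arrays numbered 1, a comparison chosen after seeing the data, 5 of the 6 genes were lower in *Id2*-/- on both remaining pairs, as were 45.8% of all tested probes. The differences were -0.45 for *Hmgcs1* (SE 0.13), -0.55 for *Sqle* (SE 0.14), -0.59 for *Idi1* (SE 0.13), -0.46 for *Fdft1* (SE 0.15) and -0.27 for *Cyp51* (SE 0.16), with limma adjusted p-values of 0.291, 0.235, 0.208, 0.315 and 0.531. *Dhcr7* was higher by 0.93 (SE 0.47, limma adjusted p = 0.492). The difference over all arrays depended on single control arrays. Without the control array numbered 1 the median difference of the 6 genes was -0.53, against -0.06 with all arrays, and without the control array numbered 2 or 3 it was 0.15 or 0.14. In each case 0 of the 6 genes passed the test.

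The other enzymes of the pathway gave no call either. Of 16 further enzymes of the mevalonate and sterol steps, 10 have a named probe and 9 were measured. *Idi2* was above background on no array, and the remaining enzymes were not analysed here. None of the 9 passed the test with or without the block. The difference was negative for 8 and positive for 1 (*Ebp*, 0.01), with a median of -0.11 beside 0.04 for all tested probes, of which 60.4% were positive. Their median by number was 0.45, -0.40 and -0.53, with 8, 2 and 0 of the 9 above 0. Less the median of all probes, the pairs numbered 1, 2 and 3 stood at 0.10, -0.36 and -0.34, against 0.35, -0.37 and -0.25 for the 6 genes. The array numbered 1 differed from the others of its genotype by a median of -0.34 in the controls and 0.35 in the knockout, against -1.30 and -0.07 for the 6 genes. Without the arrays numbered 1 all 9 differences were negative, with a median of -0.39, where 69.2% of all tested probes were negative with a median of -0.11.

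The 3 enzymes with the smallest p were *Tm7sf2*, a sterol reductase, *Sc5d*, a sterol desaturase, and *Pmvk*, phosphomevalonate kinase. *Tm7sf2* differed by -0.34 (SE 0.25) and by number by 0.12, -0.40 and -0.73. *Sc5d* differed by -0.32 (SE 0.42) and by number by 0.49, -0.75 and -0.71. *Pmvk* differed by -0.11 (SE 0.28) and by number by 0.44, -0.17 and -0.60. Each had a limma adjusted p of 1.0 and overlapping genotypes. Other enzymes of the chain, named after their values were seen, came closer to *Hmgcs1* in size. *Msmo1*, a demethylase that acts after *Cyp51*, differed by 0.71, -0.54 and -0.53 and *Hsd17b7*, a sterol ketoreductase, by 0.83, -0.48 and -0.40.

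**Figure D3:**
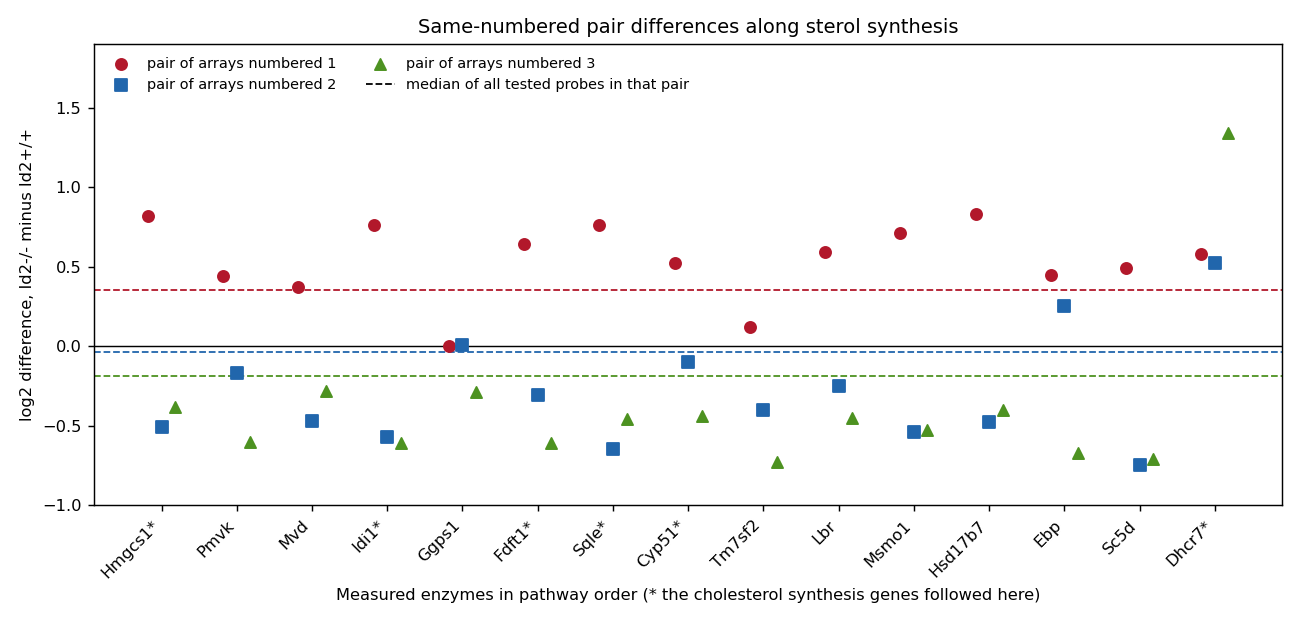
Log2 difference, *Id2*-/- minus *Id2*+/+, in each same-numbered pair (vertical axis) for 15 measured enzymes in the order of the pathway, with dashed lines at the median of all tested probes in that pair. Of the 15 enzymes, 14 lie above 0 in the pair numbered 1 and 14 lie below 0 in the pair numbered 3, where *Dhcr7* is the exception.

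Genes that govern the pathway and its neighbors gave no call in the fit without the block. Of the SREBP machinery 5 of 10 genes were measured, and *Srebf2* was not analysed here. The differences ran from 0.00 for *Srebf1* to 0.19, with a median of 0.09 beside 0.04 for all tested probes, and *Srebf1* turned to -0.04 with arrays centred on the median of the tested probes. By number the medians were 0.59, -0.19 and -0.32, and without the arrays numbered 1 all 5 differences were negative, with a median of -0.20. *Insig1*, the sterol-responsive inhibitor of SREBP processing, had the largest pair differences of the 5 (1.04, -0.40 and -0.37), and its mean difference was 0.09 (SE 0.54). *Insig2*, its relative, differed by 0.19, *Mbtps2*, a protease of SREBP, by 0.10 and *Scap*, the escort protein, by 0.05, with limma adjusted p-values of 1.0. *Mbtps2* was above background on only 1 knockout array.

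Sterol uptake was measured through 8 of 16 genes. The differences were positive for 4 and negative for 4, with a median of -0.05. The lipoprotein receptors *Lrp1* and *Vldlr* differed by 0.34 and -0.31, and *Mylip*, which marks lipoprotein receptors for degradation, by -0.19. Of 12 genes for efflux, oxysterols and storage 4 were measured, with a median of -0.08. *Ch25h*, cholesterol 25-hydroxylase, was tested only because all 3 knockout arrays were above background. The control array numbered 1 was not (score 1.42), and the other pairs differed by 0.17 and 0.06. Its limma adjusted p was 0.0266 with the array number as a block and 0.761 with quantile normalization added, so that call rests on a value not above background and is lost under another scaling. *Cyp46a1*, cholesterol 24-hydroxylase, differed by -0.20 and *Apoe*, an apolipoprotein, by -0.16.

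Among the 8 measured genes of fatty acid synthesis, which SREBP1 drives, 4 differences were positive and 4 negative, with a median of 0.01 and pair medians of 0.54, -0.21 and -0.37. *Acly*, which supplies acetyl-CoA, differed by 0.26, *Fasn*, fatty acid synthase, by -0.16 and *Scd2*, a desaturase, by -0.17. The enzymes that lead mevalonate products away to prenylation and dolichol (8 measured) had a median of 0.03 and pair medians of 0.35, -0.02 and -0.23, which are nearly those of all probes. *Icmt*, a methyltransferase of prenylated proteins, differed by 0.25, *Dhdds*, of dolichol synthesis, by 0.14 and *Fntb*, a farnesyltransferase subunit, by 0.05. Of the hedgehog pathway only *Gli1*, *Boc* and *Gas1* were measured. *Gli1*, a transcriptional target of the pathway, was higher in *Id2*-/- in all 3 pairs by 0.86, 0.21 and 0.19, as were 11.8% of all tested probes. Its genotypes did not overlap, as for 4.02% of probes, but its difference of 0.42 (SE 0.24) had a limma adjusted p of 1.0. The receptors *Boc* and *Gas1* differed by 0.16 and -0.05.

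The summed epithelial markers were lowest on the control array numbered 1 and highest on the other control arrays. So were *Hmgcs1*, *Sqle*, *Fdft1* and the brighter *Idi1* probe, but not *Cyp51* and *Dhcr7*. The sums of the mesenchyme and proliferation markers had the same extremes, but their medians by number, given below, were not those of the epithelial markers. Single markers did not all follow the sums, as *Krt19* was lowest on the knockout array numbered 2 and *Muc13* on the knockout array numbered 1. The summed signal of 13 pan-epithelial markers, in units of the array median, was 565, 1330 and 1530 in *Id2*+/+ and 795, 877 and 906 in *Id2*-/-. Such sums are set mostly by the brightest probes. Of these markers 12 had a negative difference, with a median of -0.28 and pair medians of 0.48, -0.48 and -0.82. For 7 markers of intestinal epithelium the sums were 108, 295 and 380 against 127, 163 and 180, all 7 differences were negative with a median of -0.57, and *Fabp1* (-1.61) and *Muc13* (-2.03) were called lower by limma with the block (adjusted p = 1.29e-06 and 1.04e-10). With quantile normalization added, their differences were -1.58 and -1.88 and their limma adjusted p-values 0.24 and 0.275, so neither was called. The pair medians of these 7 markers were 0.02, -0.92 and -1.06. For 10 mesenchyme markers the sums were 3380, 8230 and 7990 against 4100, 7520 and 6690, with a median difference of 0.01. Their pair medians were 0.26, -0.11 and -0.22, beside 0.35, -0.04 and -0.19 for all tested probes. Proliferation markers (4 measured) had sums of 547, 1200 and 1210 against 894, 1070 and 1030, with pair medians of 0.74, 0.0 and -0.20. The pair medians of the 6 cholesterol synthesis genes were 0.70, -0.41 and -0.45. *Grhl2* and *Cdx1*, also epithelial markers, have probes that did not pass the filter on background. The part of cell composition in the values of the cholesterol synthesis genes was not tested.

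The remaining marker lists were small and not all had these arrays as extremes. The summed erythroid signal was highest on the knockout array numbered 1 (2340) and the endothelial one on the knockout array numbered 2 (106). The median difference was 0.16 for smooth muscle (5 measured), 0.07 for enteric neural crest (5), 0.42 for endothelium (4), 0.72 for erythroid cells (5), -0.11 for macrophages (4) and -0.41 for liver (3), with 0 genes called in any of them with or without the block. The erythroid median was above 0 in all 3 pairs, with the embryonic globins *Hba-x*, *Hbb-y* and *Hbb-bh1* higher in each and *Hba-a1* and *Alas2* lower in the pairs numbered 2 and 3.

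**Figure D4:**
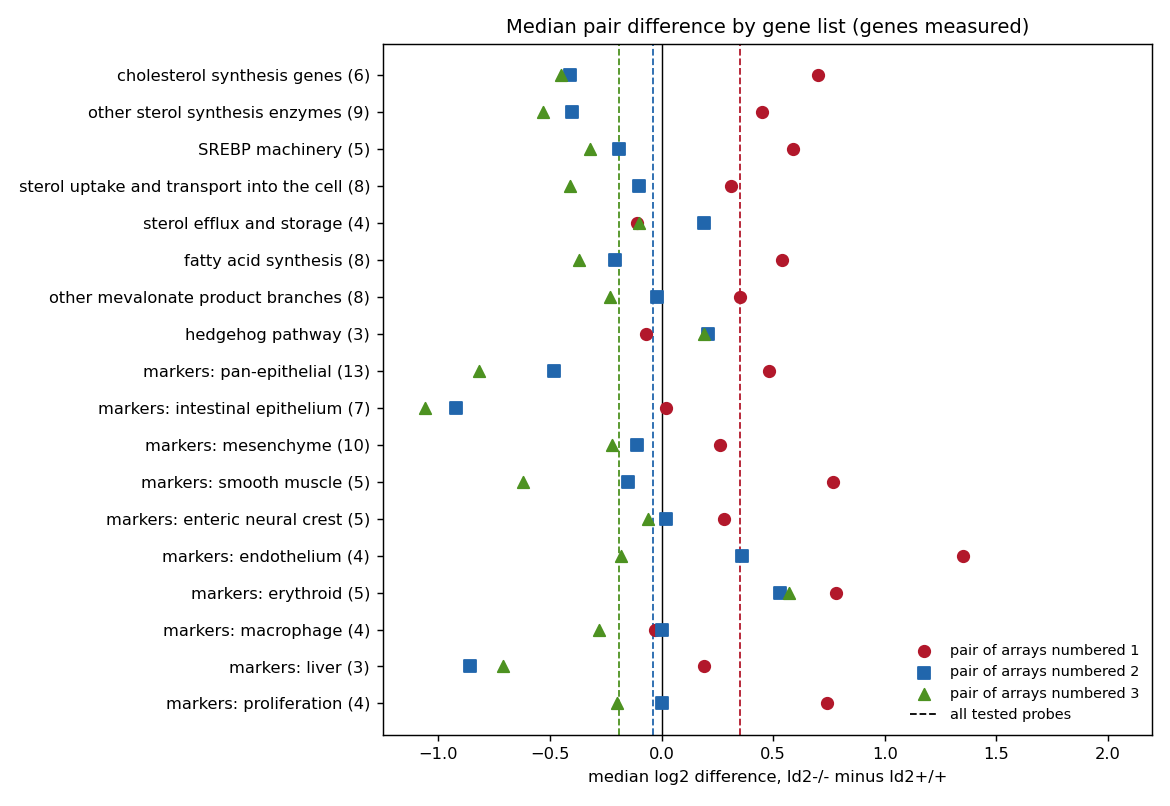
Median log2 difference, *Id2*-/- minus *Id2*+/+, over the measured genes of each list (number in parentheses) in the same-numbered pairs (horizontal axis), with dashed lines at the medians of all tested probes. The cholesterol synthesis genes, at 0.70, -0.41 and -0.45, lie above the dashed line in the pair numbered 1 and below it in the others. So do the other sterol enzymes, SREBP machinery, fatty acid synthesis, pan-epithelial and smooth muscle lists. In the pair numbered 3, the pan-epithelial, intestinal epithelium, liver, smooth muscle and other sterol enzyme lists lie further below 0.

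The 6 genes were also compared in the shape of their values over the arrays. Centred on the gene's own mean and averaged over the 6 genes, the profile was -0.50, 0.13 and 0.26 in *Id2*+/+ and 0.18, -0.14 and 0.07 in *Id2*-/-. *Fdft1* lay closest to this mean profile, at a root mean square distance of 0.192 log2 units over the 6 arrays, followed by *Idi1* (0.334), *Sqle* (0.421), *Hmgcs1* (0.440), *Cyp51* (0.473) and *Dhcr7* (0.976). Among 7316 other named genes the closest were *Atad1* (0.049), *Polr3e* (0.053), *Hspd1* (0.065), *Tyw3* (0.071) and *Atp5b* (0.073), which lay nearer than any of the 6 genes themselves. None of these is an enzyme of sterol synthesis. The mean profile averages genes that went opposite ways on the control array numbered 1, such as *Hmgcs1* (-1.16) and *Dhcr7* (0.66). It is therefore flatter than the profiles of the 6 genes, and the nearest of 7316 genes are set against only 6. The ranking thus cannot show whether the 6 genes behaved as a group. *Atad1* gave 4.18, 4.65 and 4.86 in *Id2*+/+ and 4.78, 4.50 and 4.63 in *Id2*-/-, so its range over the arrays was narrower than that of *Hmgcs1*. The likeness rests on 6 arrays that share the split of number 1 from the others.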

How the data were processed

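Distal midgut RNA (E13.5) from 3 *Id2*+/+ and 3 *Id2*-/- samples was amplified in 1 round and hybridized to mouse genome survey arrays of Applied Biosystems. Per the file headers, each array has a signal intensity, a signal-to-noise score, a flag and a normalized value. The authors divided each signal by a constant (708 to 1010), which equals the median intensity of the unflagged spots. The deposited series table repeats these ratios to the median (largest difference 0). The sources used here do not name a genome build or the scanner software's version. The methods give flags under 5000 as false spots. Here flags of 5000 or more were left out, since nearly all spots are below this value, and 32189 probes were unflagged on all arrays.

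The log2 of the deposited normalized values was fitted with limma 3.58.1 in R 4.3.3 (lmFit and eBayes, two-sided, Benjamini-Hochberg adjustment over all tested probes at 0.05). Tested were the 12741 unflagged probes that were above background (score 3 or more) on the 3 arrays of either genotype. Of the 33012 probes, the platform annotation names 14411 with a single symbol, 247 with several and 18354 with none, and 14402 of the named probes matched a RefSeq gene by its number. Where a gene had more than 1 tested probe, the brightest stands for it. Probe counts above background were 13891 to 16543 per array, and 3 arrays a genotype limit the precision. To check pairing, each array's deviations from the mean of its genotype were correlated between arrays of the same number (0.838, 0.644 and 0.579). Arrays numbered 2 and 3 correlated across genotypes as well (0.638 and 0.549), and those numbered 1 with the rest at -0.773 to -0.68, so the values separate number 1 from the others but do not single out the pairs numbered 2 and 3. The numbers were treated as pairs, although the labels state only that the embryos are littermates. With the block the prior degrees of freedom were infinite, so all probes share a single variance.

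The genes and lists were chosen with earlier results of these data known. Named are all 8 genes, the 3 genes of each pathway list with the smallest p, and the 5 genes nearest in profile. *Ebp*, *Insig1*, *Msmo1*, *Hsd17b7* *Srebf1* and the marker genes named singly were named after their values were seen. Alternatives were quantile normalization, other filters, an offset of 0.5, the deposited series table, the block, a trended robust prior, probe averages and leaving out each array. Slide or scan could not be used as a block, because the files hold neither. The fits were also run on simulated data with known changes. There the effect of the array number was drawn for each probe alone, so that run does not show how the fits handle the split of number 1. Promoter sequences are from RefSeq (GRCm38.p6), and figures were drawn with matplotlib 3.10.9.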

Additional observations from a re-analysis of the deposited data

How the results depend on the processing

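Of the 6 cholesterol synthesis genes and the 9 other enzymes, 0 were called under any of 19 alternatives. With the replicate block the count of called probes rose from 0 to 278, and it fell to 0 again with quantile normalization added or with arrays centred on the median of the tested probes, while probes at an unadjusted p under 0.05 numbered 879, 945 and 930. The prior degrees of freedom were infinite in the first of these fits and 2.25 and 2.34 in the others. The replicate block left the median difference of the 6 genes at -0.06 and changed no call among them. The median ranged from -0.53 to 0.15 over the alternatives, with both extremes from leaving out 1 control array. Leaving out each array in turn, the difference ranged from -0.61 to 0.29 for *Hmgcs1*, from -0.69 to 0.20 for *Sqle*, from -0.65 to 0.11 for *Idi1*, from -0.45 to 0.13 for *Fdft1*, from -0.39 to 0.20 for *Cyp51* and from 0.40 to 1.35 for *Dhcr7*, so that every gene but *Dhcr7* changed sign with the array left out. Alternatives chosen after seeing the data were the arrays numbered 2 and 3 alone, which gave a median of -0.45, and centring on the median of the tested probes, without and with the replicate block, which gave -0.10. Across all alternatives the smallest limma adjusted p was 0.11 for *Dhcr7* and 0.208 for *Idi1*. *Dhcr7* was close to background on the arrays numbered 2, and depth in the sense of counts does not apply to arrays. Slide and scan were not run as blocks.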
